A study of Mus musculus with 18 samples.

Results

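Plasminogen activators, their receptor and their serpins were followed in the mammary tissue of mice, from tumors to glands without a tumor. The genes were Plau and Plat, which encode the urokinase-type and the tissue-type activator, Plaur, which encodes the urokinase receptor, and the serpins Serpinb2, Serpinb5 and Serpine2. They were picked by name, and a gene was taken as measured where a transcript cluster carried its symbol and no other. By this rule 5 of the 6 listed genes were found among 27030 named genes, and Serpine2 was not analysed here. The 18 arrays held 6 mammary tumors, 6 hyperplastic glands and 6 normal glands of female C57Bl/6 mice. Tumors and hyperplastic glands both came from mice exposed to medroxyprogesterone acetate (MPA, a synthetic progestin, in a pellet of 50 mg releasing over 90 days) and 7,12-dimethylbenz[a]anthracene (DMBA, a carcinogen, 6 gavages of 200 µL at 5 mg/mL), with the pellet implanted at 6 to 9 weeks of age. Tumors driven by MPA and DMBA (M/D-driven tumors) were taken at 0.7 to 1 cm2, hyperplastic glands came from exposed mice in which no tumor developed, and normal glands came from M/D-naïve mice whose age the labels do not give. Levels are log2 expression values after robust multi-array averaging (RMA), so that 1 unit is 2-fold, and each difference is that of the group means on this scale, followed by its standard error (SE) from a limma fit over all arrays.

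Urokinase and tissue plasminogen activator are serine proteases that cut plasminogen into plasmin, which dissolves fibrin, degrades matrix and releases or activates growth factors. The urokinase receptor, anchored in the membrane by a lipid, holds urokinase at the cell surface. Serpinb2 encodes plasminogen activator inhibitor type 2, which inactivates both activators and is known as a gene of stimulated macrophages and keratinocytes. Serpinb5 encodes maspin, an epithelial serpin that is not itself an inhibitor of plasminogen activators and was first described in mammary epithelium. In the mammary gland the activators take part in the tissue remodelling that follows weaning.

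Serpinb2 had the largest difference of the measured members: it was at least 3.47-fold higher in tumors than in normal glands, or at least 2.04-fold without tumor 3. Its groups did not overlap, but tumors 2 and 5 and all normal glands lay under the detection level, where values have no order. Plaur was 1.56-fold higher in tumors and 1.52-fold higher in hyperplastic glands than in normal glands, without a gap between the groups. Plau and Plat, the activators themselves, differed little between group means. Serpinb5 was 1.70-fold higher in tumors than in normal glands on average, although 1 tumor had the lowest level of all arrays. That array, tumor 3, also had the highest level of Serpinb2, Plau, Plaur and Plat.

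Tumor 3 stood apart from the other tumors far beyond these genes. Over the 17049 genes with a mean above the detection level, it was the highest of all 18 arrays in 15.2% and the lowest in 12.1%, and it was the highest of the 6 tumors in 27.4%. The detection level, 5.36 log2, is the 95th percentile of the means of 1078 genes for olfactory receptors, a family with little expression in mammary tissue. The 7 measured markers of luminal epithelium averaged 8.08 in tumor 3, against 9.56 to 11.04 in the other tumors, 9.25 to 10.16 in hyperplastic and 9.19 to 9.48 in normal glands, and all 7 lay above the detection level over the series. The 7 measured markers of basal cells and myoepithelium averaged 7.52 in tumor 3, against 8.89 to 10.42 in the other tumors, 8.87 to 9.45 in hyperplastic and 8.79 to 9.01 in normal glands. The 5 measured macrophage markers averaged 10.40 in tumor 3, against 8.47 to 9.46 in the other tumors, 8.13 to 8.92 in hyperplastic and 8.03 to 8.40 in normal glands. Adipocyte markers averaged 7.13 to 8.80 in tumors, against 10.61 to 11.30 in hyperplastic and 10.64 to 10.94 in normal glands. In whole tissue, fewer cells of a type and less RNA per cell cannot be told apart. For each member, the differences of tumors from hyperplastic and normal glands are given below with and without tumor 3.

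Of the 5 members, 3 were matched to a RefSeq promoter (GRCm38.p6): Serpinb2, Serpinb5 and Plaur, and not Plau and Plat. They are shown because no promoter was matched for the other measured members. The 150 bases before each start are shown 5′ to 3′, with capitals marking every match to the AP-1 motif TGANTCA, the CRE motif TGACGTCA and the TATA box TATAAA on either strand.
Serpinb2 (chr1:107511273-107511422, plus strand): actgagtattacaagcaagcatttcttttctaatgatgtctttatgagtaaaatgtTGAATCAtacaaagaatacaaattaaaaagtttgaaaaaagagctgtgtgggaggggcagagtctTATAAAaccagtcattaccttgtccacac
Serpinb5 (chr1:106861025-106861174, plus strand): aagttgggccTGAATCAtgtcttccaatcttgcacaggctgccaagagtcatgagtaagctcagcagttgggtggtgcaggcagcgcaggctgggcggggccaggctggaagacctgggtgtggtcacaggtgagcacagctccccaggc
Plaur (chr7:24462333-24462482, plus strand): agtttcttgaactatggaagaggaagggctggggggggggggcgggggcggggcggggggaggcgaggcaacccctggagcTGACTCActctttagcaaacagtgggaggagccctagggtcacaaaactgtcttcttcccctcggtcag

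All 3 windows held 1 match to the AP-1 motif, the sequence bound by dimers of Fos and Jun proteins. Its first base lay at -94 in Serpinb2, at -140 in Serpinb5 and at -69 in Plaur, counted from the start of transcription. Of all 32851 promoter windows of this length, 4.24% held such a match, and of those of 250 bases 6.75% did. Serpinb2 alone of the 3 had a TATA box, at -29, which 12.4% of windows of 250 bases held. The GC box GGGCGG was found at -58 in Serpinb5 and at -111, -105 and -100 in Plaur, where the copies adjoin or overlap, and 32.7% of windows of 250 bases held at least 1. The CRE motif was found in none of the 3. A match is a description of the letters and not a measured site.

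Plau lies on chromosome 14 and was well above the detection level on every array. Its levels were 8.72, 8.24, 10.73, 9.01, 8.59 and 8.95 in tumors 1 to 6, against 8.84, 8.45, 8.90, 9.14, 8.82 and 8.54 in hyperplastic glands and 8.88, 8.49, 8.69, 8.80, 8.65 and 8.47 in normal glands. The next array after tumor 3 was hyperplastic gland 4, tumor 2 was the lowest of all arrays, and the other 4 tumors lay among the glands. The means were 9.04 ± 0.87 in tumors, 8.78 ± 0.25 in hyperplastic and 8.66 ± 0.16 in normal glands (SD, n = 6 each). Tumors differed from normal glands by 0.38 (SE 0.29), with 4 of 6 tumors above the normal mean, and by 0.04 without tumor 3. Against hyperplastic glands the difference was 0.26 (SE 0.29), and it turned to -0.08 without tumor 3. Hyperplastic glands differed from normal glands by 0.12 (SE 0.29), or -0.04 after centring the arrays on reference genes. 

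Plat, on chromosome 8, was the one member whose mean in tumors was below that of normal glands. Tumors 1 to 6 had levels of 8.71, 8.33, 9.72, 8.71, 8.13 and 8.71, against 8.69, 8.53, 8.57, 9.21, 8.49 and 8.35 in hyperplastic glands and 8.96, 8.83, 8.71, 9.06, 8.86 and 8.65 in normal glands. Tumor 3 was again the highest array, and tumors 5 and 2 were the lowest. Means were 8.72 ± 0.55, 8.64 ± 0.30 and 8.85 ± 0.15 in tumors, hyperplastic and normal glands (SD, n = 6 each). Tumors differed from normal glands by -0.13 (SE 0.20), with 5 of 6 below the normal mean, and by -0.33 without tumor 3. Hyperplastic glands differed from normal glands by -0.20 (SE 0.20), also with 5 of 6 below the normal mean, and 4 of them lay under every normal gland. The difference between tumors and hyperplastic glands was 0.08 (SE 0.20) and became -0.12 without tumor 3, and -0.04 with array weights or after centring on reference genes.

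Plaur, on chromosome 7, showed the narrowest normal range of the members and a wide one in both exposed groups. Its levels in tumors 1 to 6 were 7.72, 7.61, 9.40, 8.32, 7.31 and 8.29, against 7.55, 8.14, 8.61, 8.57, 7.36 and 8.19 in hyperplastic glands and 7.42, 7.36, 7.56, 7.46, 7.46 and 7.55 in normal glands. In all, 5 tumors and 4 hyperplastic glands lay above the highest normal gland, while tumor 5 and hyperplastic gland 5 were at or under the normal range. The means were 8.11 ± 0.74 in tumors, 8.07 ± 0.52 in hyperplastic and 7.47 ± 0.08 in normal glands (SD, n = 6 each). Tumors exceeded normal glands by 0.64 (SE 0.28), or 0.38 without tumor 3. Hyperplastic glands exceeded normal glands by 0.60 (SE 0.28), and with tumor 3 left aside they lay above the tumors, with a tumor minus hyperplastic difference of -0.22 in place of 0.04 (SE 0.28). That last difference also changed sign without hyperplastic 1 (-0.06) or 5 (-0.10), with array weights (-0.11) and after centring on reference genes (-0.08), and was 0.00 without tumor 4.

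**Figure D1:**
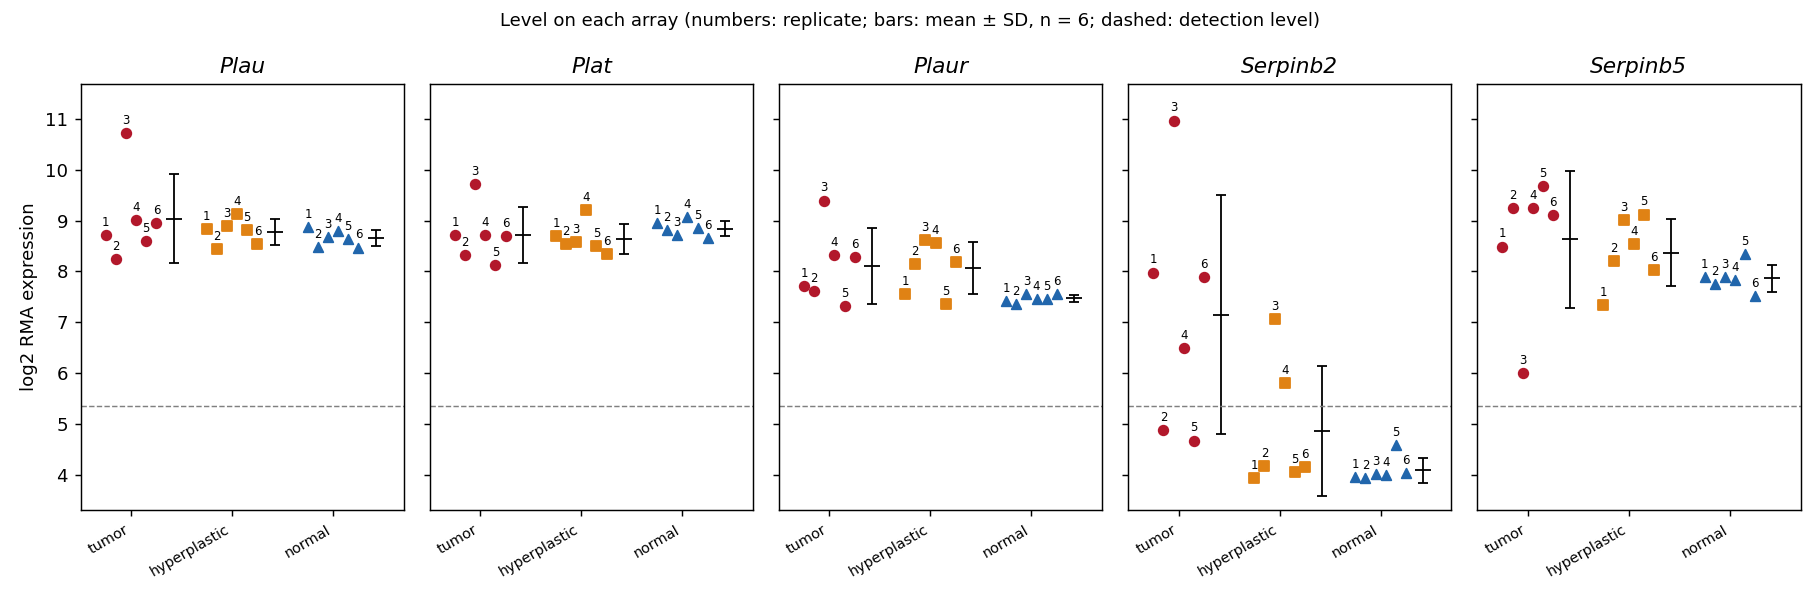
Log2 RMA expression (vertical axis) of the 5 measured members in the 6 tumors, 6 hyperplastic glands and 6 normal glands (horizontal axis), each point being 1 array with its replicate number, each bar the mean ± SD (n = 6), and the dashed line the detection level of 5.36. Serpinb2 lay above the line in 4 tumors, 2 hyperplastic glands and 0 normal glands, and tumor 3 was the highest point for Plau, Plat, Plaur and Serpinb2 and the lowest for Serpinb5.

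Serpinb2 had the widest spread of the members. Tumors 1 to 6 had levels of 7.98, 4.88, 10.97, 6.49, 4.67 and 7.90, against 3.93, 4.17, 7.06, 5.80, 4.06 and 4.15 in hyperplastic glands and 3.95, 3.94, 4.00, 3.99, 4.59 and 4.02 in normal glands. Tumors 1, 3, 4 and 6 and hyperplastic glands 3 and 4 were above the detection level. Tumors 2 and 5 and all normal glands were under it, where values have no order. Means were 7.15 ± 2.35 in tumors, 4.86 ± 1.28 in hyperplastic and 4.08 ± 0.25 in normal glands (SD, n = 6 each). The fitted difference between tumors and normal glands was 3.07 (SE 0.83) and between tumors and hyperplastic glands 2.29 (SE 0.83), and without tumor 3 they were 2.30 and 1.53. With each array of the dimmer group set at the higher of the detection level and its own value, which put all 6 normal and 4 of 6 hyperplastic arrays at that level, tumors were at least 3.47-fold above normal and at least 2.71-fold above hyperplastic glands. Without tumor 3 these bounds were 2.04-fold and 1.59-fold. Hyperplastic glands differed from normal glands by 0.78 (SE 0.83), with both means under the detection level, so that no fold is given.

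Markers of macrophages, neutrophils and squamous epidermis also varied between arrays where Serpinb2 was high, and their part in its level was not tested. The macrophage markers averaged 9.17, 10.40, 8.79 and 9.46 in tumors 1, 3, 4 and 6 and 8.55 and 8.47 in tumors 2 and 5, against 8.92 and 8.51 in hyperplastic glands 3 and 4 and at most 8.40 in normal glands. Hyperplastic gland 1, with Serpinb2 under the detection level, had 8.74. The 7 measured squamous markers, 4 of them with a mean above the detection level, averaged 7.83, 5.62, 6.54 and 8.25 in tumors 1, 3, 4 and 6. In tumors 2 and 5 they averaged 5.91 and 5.69. They averaged 9.03 and 5.63 in hyperplastic glands 3 and 4, and 5.26 to 5.67 in the other hyperplastic glands. They ran from 5.05 to 6.29 in normal glands, all with Serpinb2 under the detection level. The 6.29 belonged to normal gland 5, which also had the highest Serpinb5 of its group. Tumor 3, with the most Serpinb2, therefore had the lowest squamous average of the 6 tumors. The 6 measured neutrophil markers averaged 6.14, 7.51, 6.61 and 8.21 in tumors 1, 3, 4 and 6 and 5.64 and 5.68 in tumors 2 and 5. They averaged 7.82 and 5.86 in hyperplastic glands 3 and 4, 5.65 to 6.01 in the other hyperplastic glands and 5.74 to 5.90 in normal glands. Of the macrophage markers, 3 of 5 were called higher in tumors than in normal glands (Msr1, C1qa and Arg1), beside 19.5% of all genes. Mrc1 of the same list averaged 10.04 in tumors and 10.14 in normal glands. Of the 6 neutrophil markers 2 were called higher and 1 lower, and of the 7 squamous markers 1 was called higher.

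Serpinb5, on the same chromosome as Serpinb2, ran the other way in tumor 3. Its levels were 8.49, 9.24, 6.00, 9.26, 9.69 and 9.10 in tumors 1 to 6, against 7.34, 8.20, 9.01, 8.53, 9.12 and 8.03 in hyperplastic glands and 7.89, 7.74, 7.88, 7.82, 8.34 and 7.52 in normal glands. The other 5 tumors lay above every normal gland, as did 3 hyperplastic glands, and tumor 3 lay below all 17 other arrays. Means were 8.63 ± 1.35 in tumors, 8.37 ± 0.66 in hyperplastic and 7.87 ± 0.27 in normal glands (SD, n = 6 each). Tumors exceeded normal glands by 0.76 (SE 0.47) and hyperplastic glands by 0.26 (SE 0.47). Without tumor 3 these differences were 1.29 and 0.79. Hyperplastic glands exceeded normal glands by 0.51 (SE 0.47), with 5 of 6 above the normal mean.

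Of the 5 measured members, 1 was called higher in tumors than in normal glands (Serpinb2), beside 19.5% of all genes called higher at an adjusted p under 0.05 (limma, Benjamini-Hochberg), and 1 had groups that did not overlap, beside 9.24% of all genes. Against hyperplastic glands 0 members were called, beside 20.5% of all genes in either direction, and between hyperplastic and normal glands 0, beside 1.67%. These 5 genes were chosen with results of these samples known, so the counts describe them and no p-value is given. The median difference over the members was 0.64 for tumor against normal, 0.26 for tumor against hyperplastic and 0.51 for hyperplastic against normal, beside 0.04, 0.04 and 0.01 over all genes.

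Serpinb5, Plau, Plaur and Plat varied between tumors more than most genes. Serpinb2 is left out of this ranking, since only the tumors brought its mean to the detection level. The median SD over genes above the detection level was 0.18 in tumors, 0.12 in hyperplastic and 0.13 in normal glands. A spread among tumors as wide as that of Serpinb5 was seen in 127 of 17049 genes (0.745%). For Plau, Plaur and Plat the share was 3.07%, 4.38% and 8.52%. These shares include tumor 3, and the ranking was not repeated without it. The SD among the other tumors was 0.43 for Serpinb5, 0.31 for Plau, 0.44 for Plaur and 0.27 for Plat. With tumor 3 it was 1.35, 0.87, 0.74 and 0.55. Among hyperplastic glands, 243 genes (1.43%) varied as much as Serpinb5 and 497 (2.92%) as much as Plaur. Tumor 3 exceeded the mean of the other 5 tumors by 4.59 for Serpinb2, 2.03 for Plau, 1.55 for Plaur and 1.20 for Plat, and differed from it by -3.16 for Serpinb5.

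**Figure D2:**
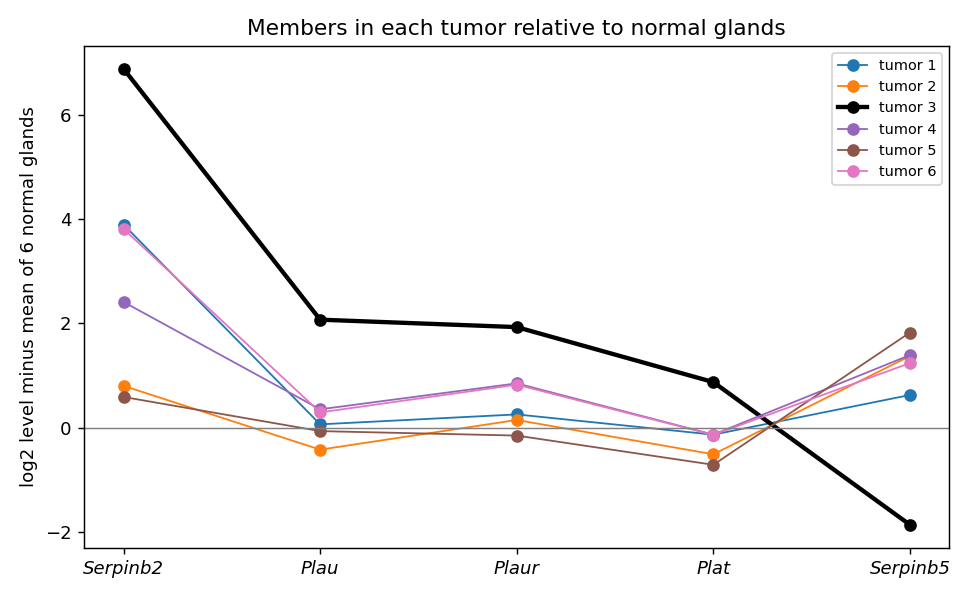
Log2 level of each member in tumors 1 to 6 minus the mean of the 6 normal glands (vertical axis), with the members along the horizontal axis and 1 line per tumor. Tumor 3 (black) ran from 6.89 for Serpinb2 to -1.87 for Serpinb5, whereas Serpinb5 was 0.63 to 1.82 above the normal mean in the other tumors.

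Levels of the members were also set side by side from tumor to tumor. The 10 correlations over the 6 tumors are a description without a test, since the genes were chosen with results of these samples known, and Serpinb2 lay under the detection level in tumors 2 and 5. Plat and Plaur had r = 0.96 and rho = 0.94, with r = 0.67 after leaving out tumors 3 and 5, the farthest from the median. Plau and Plaur had r = 0.93 and rho = 0.94, with r = 0.99 without tumors 2 and 3. Plat and Serpinb2 had r = 0.96 and rho = 0.83, with r = 0.88 without tumors 3 and 5. Serpinb2 and Serpinb5 were opposed, with r = -0.90 and rho = -0.94, and r = -0.65 without tumors 3 and 5. Without tumor 3 alone, r was 0.84, 0.77, 0.91 and -0.79 for these pairs.

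Of the other pairs, Plau and Plat had r = 0.95, Plau and Serpinb2 r = 0.89, and Plaur and Serpinb2 r = 0.88. Their rho was 0.89, 0.71 and 0.77, and r without the 2 farthest tumors was 0.77, 0.50 and 0.39. Serpinb5 was opposed to Plat (r = -0.95), Plau (r = -0.92) and Plaur (r = -0.85). For these the rho was -0.66, -0.49 and -0.60, and r without the 2 farthest tumors was -0.40, -0.15 and 0.41. The relations of Serpinb5 with Plau and Plaur rested on tumor 3, without which r was -0.17 and -0.26. Leaving out tumor 3 alone gave r = -0.73 for Serpinb5 and Plat and 0.71 for Plau and Plat. It gave 0.68 for Plau and Serpinb2 and 0.64 for Plaur and Serpinb2.

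**Figure D3:**
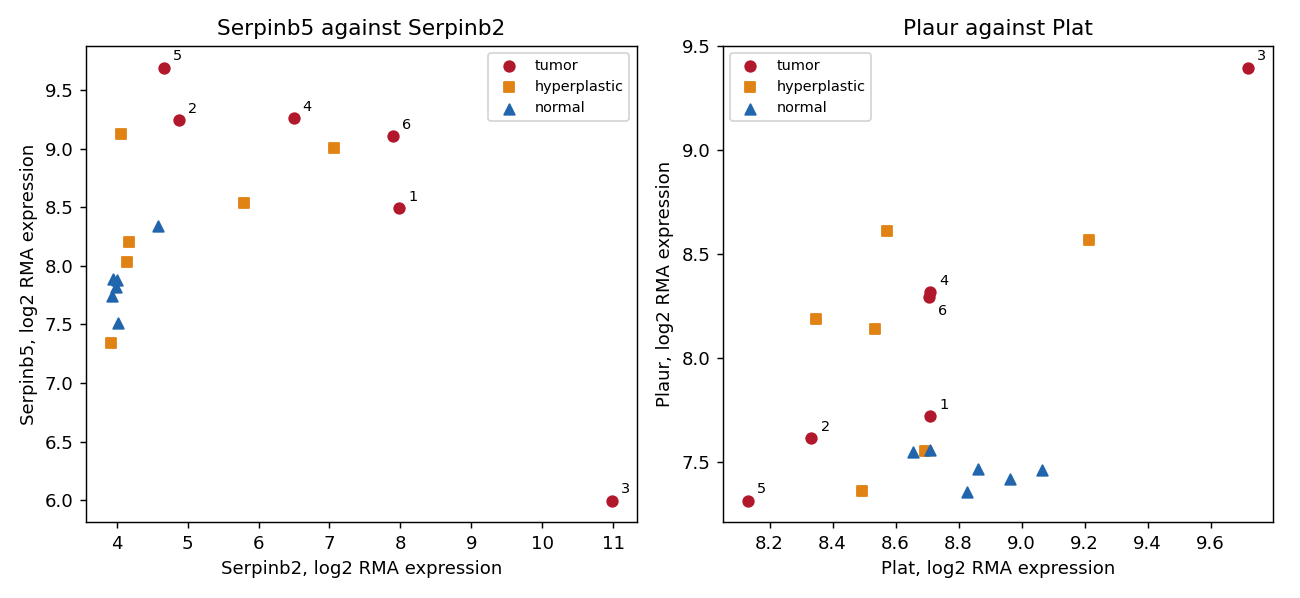
Serpinb5 against Serpinb2 (left) and Plaur against Plat (right), both axes in log2 RMA expression, each point 1 array and the numbers naming the tumors. In the left panel tumor 3 lies at the lower right (10.97 and 6.00), and in the right panel at the upper right (9.72 and 9.40), away from the other 17 arrays.

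For each member, the 3 other genes whose levels followed it most closely over the 18 arrays were looked up among genes above the detection level. Closest to Serpinb2 were Timp1, an inhibitor of matrix metalloproteinases (r = 0.97), Msr1, a scavenger receptor of macrophages (r = 0.96), and Bicd2, an adaptor of the dynein motor (r = 0.95), and r was 0.95, 0.92 and 0.94 without tumor 3. Serpinb2 lay above the detection level on only 6 of the 18 arrays, and values under it have no order, which limits these r. Timp1 had levels of 8.94, 7.76, 11.48, 8.70, 7.59 and 9.39 in tumors 1 to 6, against 6.71 to 8.73 in hyperplastic and 6.49 to 7.03 in normal glands. Its highest hyperplastic gland was number 3, as for Serpinb2.

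Closest to Serpinb5 were genes of epithelial identity. They were Cdh1, which encodes E-cadherin (r = 0.96), Spint2, an inhibitor of membrane-bound serine proteases (r = 0.95), and Esrp1, an epithelial splicing regulator (r = 0.94), with r of 0.93, 0.92 and 0.90 without tumor 3. Cdh1 had 9.66, 10.91, 7.59, 10.32, 10.51 and 10.29 in tumors 1 to 6, against 8.97 to 9.97 in hyperplastic and 8.85 to 9.20 in normal glands. Esrp1 was at 5.95 in tumor 3 and between 9.40 and 9.86 in the other tumors.

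Plaur was closest to Spsb1, a SOCS box protein (r = 0.94), Upp1, a uridine phosphorylase (r = 0.94), and Slc11a2, a transporter of divalent metals (r = 0.93), and these values fell little without tumor 3 (0.90, 0.89 and 0.88). Plau was closest to Layn, a hyaluronan receptor (r = 0.95), Ext1, an enzyme of heparan sulfate synthesis (r = 0.94), and Ankrd50 (r = 0.93), with 0.67, 0.79 and 0.62 without tumor 3. Plat was closest to Pcdh19, a protocadherin (r = 0.90), Creb3l1, a transcription factor (r = 0.89), and Mrc1, the macrophage mannose receptor (r = 0.88), with 0.80, 0.80 and 0.77 without it. These correlations are a description over 18 arrays that include the differences between groups. Computed on deviations from the group means they lay between 0.88 and 0.97.

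Beyond the members, a list of proteases, receptors, inhibitors and substrates of the plasminogen system held genes called in both directions. None of its 4 measured activators of pro-urokinase was called in any comparison. Of 30 listed genes 23 were measured, 19 of them with a mean above the detection level. In tumors against normal glands 3 rose and 5 fell, so that 8 of 23 were called beside 32.2% of all genes. Against hyperplastic glands 1 rose and 4 fell, beside 20.5% of all genes called in either direction. Between hyperplastic and normal glands 1 fell, beside 1.67%. The median difference over the list was 0.08, 0.03 and 0.02 for these comparisons, beside 0.04, 0.04 and 0.01 over all genes. Plasminogen itself was not analysed here. The list was chosen with earlier results of these data known, so the adjusted p-values of its genes are a description.

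Of the genes whose products bind these proteins at the cell surface, Anxa2 and Mrc2 were called higher in tumors than in normal glands. Lrp1, given below, was called lower, and Anxa2 was the only 1 of 2 measured plasminogen receptors to be called. Anxa2, which encodes the annexin that serves as a receptor for plasminogen and tissue plasminogen activator, had 9.92, 10.29, 11.16, 10.42, 10.27 and 10.55 in tumors 1 to 6, against 9.83 to 10.35 in hyperplastic and 9.47 to 9.76 in normal glands. All tumors lay above all normal glands, by 0.84 on average (SE 0.15, adjusted p = 0.000213). Against hyperplastic glands Anxa2 was not called (0.35, SE 0.15, limma adjusted p = 0.108). Hyperplastic glands also lay above all normal glands for Anxa2, by 0.49 (SE 0.15), though this was not called (limma adjusted p = 0.1). Mrc2, the collagen receptor that associates with the urokinase receptor, had 8.58, 8.66, 9.71, 9.26, 7.74 and 8.30 in tumors 1 to 6, against 7.52 to 8.10 in hyperplastic and 7.75 to 8.09 in normal glands. It exceeded normal glands by 0.73 (SE 0.23, adjusted p = 0.0215) and hyperplastic glands by 0.89 (SE 0.23, adjusted p = 0.0106), higher in 5 of 6 tumors each. The call against normal glands ended without tumor 4 (adjusted p = 0.0559), with only these groups in the fit (0.0549) or after centring on reference genes (0.0667).

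Serping1 and Vtn, whose products are secreted, fell. Serping1, the C1 inhibitor, a serpin that also blocks plasma kallikrein and factor XII, had 9.03, 8.95, 9.34, 9.61, 9.76 and 10.98 in tumors 1 to 6, against 10.69 to 11.24 in hyperplastic and 10.94 to 11.17 in normal glands. It fell against normal (-1.47, SE 0.24, adjusted p = 0.000125) and hyperplastic glands (-1.33, SE 0.24, adjusted p = 0.000767), while tumor 6 stayed within the range of the glands. Vtn, which encodes vitronectin, a ligand of the urokinase receptor, was at 6.27 to 6.58 in tumors, 6.84 to 7.20 in hyperplastic and 7.36 to 7.76 in normal glands, with no overlap between any of the groups. It fell in tumors (-1.02, SE 0.08, adjusted p = 6.99e-08) and in hyperplastic glands (-0.46, SE 0.08, adjusted p = 0.00832) against normal glands, and in tumors against hyperplastic glands (-0.57, SE 0.08, adjusted p = 7.77e-05).

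Thbd, which encodes the anticoagulant receptor thrombomodulin, and Hgf, the hepatocyte growth factor that proteases of this system activate, were lower too. Thbd ran from 6.95 to 8.65 in tumors, against 8.59 to 9.19 in hyperplastic and 8.82 to 9.04 in normal glands, with differences of -1.13 (SE 0.19, adjusted p = 0.000202) from normal and -1.10 (SE 0.19, adjusted p = 0.000581) from hyperplastic glands. Hgf ran from 5.51 to 6.62 in tumors, against 6.60 to 7.21 in hyperplastic and 7.03 to 7.70 in normal glands, with differences of -1.43 (SE 0.18, adjusted p = 8.79e-06) from normal and -0.93 (SE 0.18, adjusted p = 0.00122) from hyperplastic glands. All 7 markers of blood endothelium, where thrombomodulin is made, were called lower in tumors than in normal glands (list means of at most 8.45 in tumors, 8.81 to 9.26 in hyperplastic and 9.14 to 9.42 in normal glands). Of 6 measured fibroblast markers 3 fell (9.88 to 10.66 in tumors, 10.51 to 11.14 in hyperplastic and 11.06 to 11.42 in normal glands), and 12.7% of all genes were called lower. The collagen genes Col1a1, Col1a2 and Col3a1 of that list were not called. They averaged 11.21, 10.70 and 10.79 in tumors, against 10.92, 10.82 and 11.07 in normal glands. The part of endothelial cells and fibroblasts in the falls was not tested. Lrp1, the endocytic receptor that clears activator and inhibitor complexes, fell against normal glands (-0.55, SE 0.20, adjusted p = 0.0467), a call that held in 10 of 28 alternatives and ended without any 1 array other than tumor 3 or 6 (adjusted p = 0.0531 to 0.111).

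The membrane protease matriptase and its inhibitors were, like Serpinb5, lowest in tumor 3. Spint1, which inhibits matriptase, had 8.62, 9.54, 7.18, 8.98, 9.49 and 9.53 in tumors 1 to 6, against 7.97 to 8.69 in hyperplastic and 7.89 to 8.14 in normal glands. It exceeded normal glands by 0.85 (SE 0.30, adjusted p = 0.0376), higher in 5 of 6 tumors. The call held in 15 of 28 alternatives, among them that without tumor 3, the only tumor under every normal gland. That call ended without tumor 2, 4, 5 or 6 (adjusted p = 0.0843, 0.0641, 0.084 and 0.085) or normal 1, 2, 3, 4 or 5 (0.058, 0.0678, 0.0543, 0.061 and 0.0643), with only these groups in the fit (0.0805), with the replicate number as a block (0.0541) and after centring on reference genes with or without Pgk1 (0.111 and 0.0652). St14, which encodes matriptase, an activator of pro-urokinase, had 9.08, 9.94, 7.43, 9.60, 9.87 and 10.01 in tumors 1 to 6, against 8.49 to 9.24 in hyperplastic and 8.32 to 8.64 in normal glands. It differed from normal glands by 0.84 (SE 0.32, adjusted p = 0.0573), and Spint2 by 0.76 (SE 0.35, adjusted p = 0.109). Without tumor 3 the differences from normal glands were 1.21 for St14 and 1.19 for Spint2. Against hyperplastic glands St14, Spint1 and Spint2 differed by 0.38, 0.51 and 0.37 with all arrays. None of these was called (limma adjusted p = 0.47, 0.276 and 0.514). Without tumor 3 they were higher than hyperplastic glands by 0.76, 0.85 and 0.80. Tumor 3 was the lowest tumor for these genes, so leaving it out raises their differences, and no p-value is given for the differences without it.

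**Figure D4:**
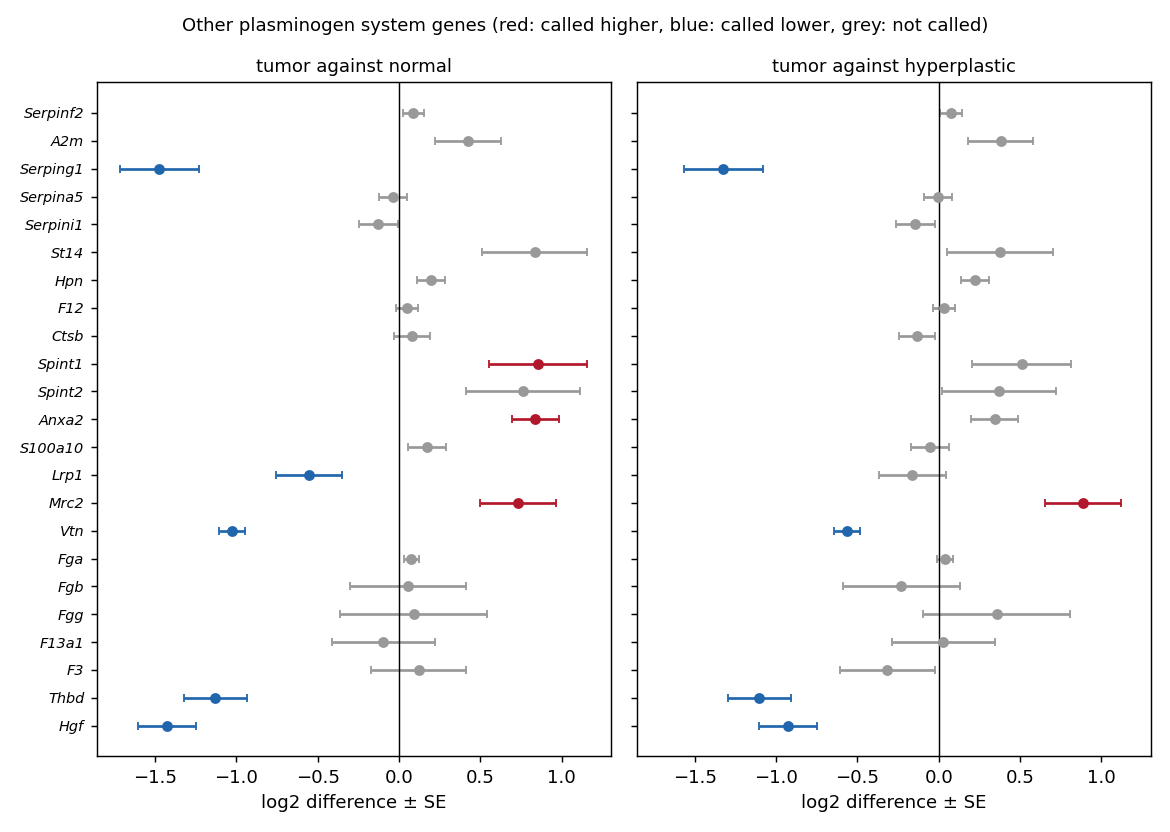
Log2 difference ± SE of the 23 measured plasminogen system genes (rows) for tumor against normal (left) and tumor against hyperplastic (right), red where called higher, blue where called lower and grey where not called. On the left Spint1, Anxa2 and Mrc2 are red and Serping1, Lrp1, Vtn, Thbd and Hgf are blue, and on the right Mrc2 is red and Serping1, Vtn, Thbd and Hgf are blue.

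Clade B serpins, the intracellular branch of the family to which Serpinb2 and Serpinb5 belong, gave 26 other measured genes, of which 5 had a mean above the detection level. None of them rose in any comparison. In tumors against normal glands 2 fell, in tumors against hyperplastic glands 2 fell, and between hyperplastic and normal glands 0 changed (limma, 0 at an unadjusted p under 0.05), beside 32.2%, 20.5% and 1.67% of all genes called in either direction. Serpinb1a, an inhibitor of neutrophil proteases, had 6.80, 6.01, 7.39, 6.55, 7.00 and 7.84 in tumors 1 to 6, against 7.85 to 8.82 in hyperplastic and 8.25 to 8.71 in normal glands. It was 3.05-fold lower than in normal glands (-1.61, SE 0.24, adjusted p = 5.5e-05) and 2.73-fold lower than in hyperplastic glands (-1.45, SE 0.24, adjusted p = 0.000371), with no overlap in either. Serpinb1c, at or under the detection level on most arrays, differed from normal glands by -0.25 (SE 0.07, adjusted p = 0.0165). Serpinb9, an inhibitor of granzyme B, differed from hyperplastic glands by -0.49 (SE 0.17, adjusted p = 0.0427), a call that held in 13 of 28 alternatives and ended without any of tumors 1, 2, 4 and 6, hyperplastic glands 1, 2, 3, 5 and 6 and normal glands 1 to 4 (adjusted p = 0.0503 to 0.0994). Several of these genes are close paralogs of each other, so that signal on one cluster may come from another.

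Serpinb2 and Serpinb5 lie in a cluster of clade B genes on chromosome 1, of which 11 of 12 were measured. In gene order these were Serpinb5, Serpinb12, Serpinb13, Serpinb3a, Serpinb3d, Serpinb3c, Serpinb11, Serpinb7, Serpinb2, Serpinb10 and Serpinb8. Serpinb5 and Serpinb8 were above the detection level on all 18 arrays, Serpinb2 on 6, Serpinb11 on 3 and Serpinb10 on 1, and the other 6 on 0. Serpinb11 had 9.13, 3.66, 3.55, 3.56, 3.69 and 7.68 in tumors 1 to 6, against 3.58 to 6.03 in hyperplastic and 3.48 to 3.64 in normal glands. Its high arrays, tumors 1 and 6 and hyperplastic gland 3, also had much Serpinb2 and high squamous markers, whereas tumor 3, with the most Serpinb2, had none above the normal range. Serpinb10, next to Serpinb2, was at 7.37 in tumor 1 and at most 5.02 in the other tumors, against at most 5.34 in hyperplastic and 4.79 in normal glands. Neither gene was called in tumors against normal glands (differences of 1.66, SE 0.83, adjusted p = 0.145, and 0.40, SE 0.39, adjusted p = 0.478).

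**Figure D5:**
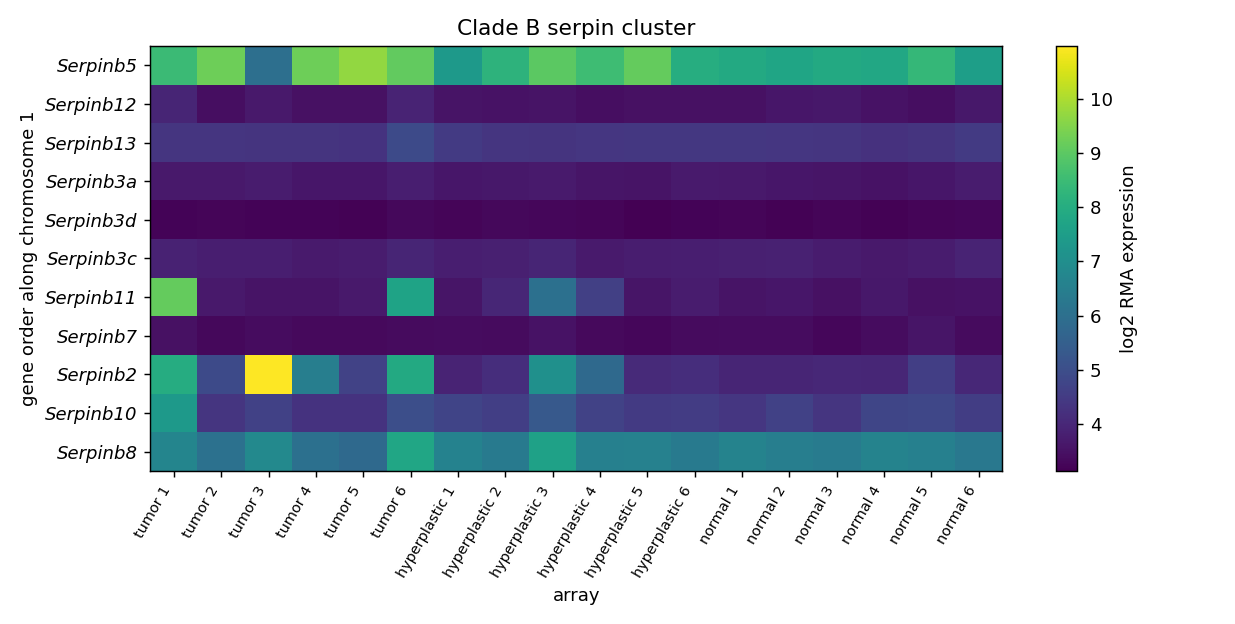
Log2 RMA expression (colour) of the 11 measured clade B serpin genes in their order on chromosome 1 (rows) in the 18 arrays (columns, tumors, then hyperplastic, then normal glands). Serpinb2 is brightest in tumor 3 (10.97), Serpinb11 in tumor 1 (9.13), and Serpinb5 is dimmest in tumor 3 (6.00).

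Genes of transcription factors that bind AP-1 and ETS motifs, 7 of 9 listed being measured and all above the detection level, fell or did not pass. In tumors against normal glands 5 fell and 0 rose, with a median of -1.01, beside 12.7% of all genes called lower and a median of 0.04 over all genes. These were Fosb (-1.69, SE 0.14, adjusted p = 1.7e-07), Ets1 (-1.10, SE 0.14, adjusted p = 1.46e-05), Fos (-1.08, SE 0.26, adjusted p = 0.00371), Jun (-1.01, SE 0.16, adjusted p = 0.000113) and Jund (-0.61, SE 0.09, adjusted p = 2.95e-05), each lower in 6 of 6 tumors. Fosb was at 9.75 to 10.52 in tumors, 10.96 to 11.80 in hyperplastic and 11.53 to 12.10 in normal glands. Against hyperplastic glands 4 fell (Fosb, Ets1, Jund and Jun), beside 8.57% of all genes, and that of Jun (adjusted p = 0.0291) ended without tumor 3 or hyperplastic 1, 5 or 6 (adjusted p = 0.0542, 0.0683, 0.0524 and 0.0741). Between hyperplastic and normal glands 0 were called. Fosl1 and Junb were not analysed here. The AP-1 and ETS genes were named after their values were seen, so their adjusted p-values are a description. Markers of other cells were called lower in tumors than in normal glands as well, with 5 of 5 for T cells, 4 of 4 measured for B cells, 7 of 7 for blood endothelium and 7 of 7 for adipocytes. The T cell markers averaged 5.77 to 6.98 in tumors, against 7.71 to 9.23 in hyperplastic and 7.75 to 8.75 in normal glands, and the B cell markers 5.40 to 6.70 in tumors, against 7.82 to 9.15 in hyperplastic and 8.01 to 8.82 in normal glands. The part of these cells in the falls of the AP-1 and ETS genes was not tested.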

How the data were processed

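The authors deposited log2 values made by RMA, which corrects background, forces a common distribution on the arrays and combines probes. Per the processing notes of the submitters, Affymetrix Expression Console and Partek were used (no versions), and the genome build is not given in the sources used here. Differences in total RNA are hidden by this normalization, differences near background are compressed, and precision is limited by 6 arrays a group. The study counts its samples as mice of a single experiment, and the labels tie no sample to a mouse, so p-values measure only the spread between these samples. No batch is recorded.

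The table held 58803 transcript clusters (its autosomes end at 16), of which 27309 had 1 symbol, and for 198 genes with several clusters that of highest mean was kept. Group means over 18 arrays were fitted in limma 3.58.1 (R 4.3.3) with two-sided moderated tests, Benjamini-Hochberg adjustment over 27030 genes and calls at an adjusted p under 0.05. In simulated data for tumor against normal (27030 genes) the fit found 96 of 100 genes with a log2 change of 1, 100 of 100 with 2, and 13 unchanged genes. In folds given as "at least", each array of the dimmer group was set at the higher of the detection level and its own value.

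The members and lists were chosen with earlier results of these data known. The adjusted p-values printed for list genes therefore describe these arrays and are no independent support. Named were the members, genes called in at least 1 comparison among the plasminogen system and clade B serpins, the 3 genes most alike to each member, and up to 3 markers of a list. St14, Spint2, Serpinb11, Serpinb10 and the AP-1 and ETS genes were named after their values were seen. Alternatives were other scalings, array weights, a replicate block, fits on only the groups compared, the methods' threshold and left-out arrays. Centring without Pgk1 was added after seeing the data.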

Additional observations from a re-analysis of the deposited data

Results flagged for a closer look

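For 16 genes in 3 groups, 48 groups of 6 arrays were examined for 1 array far from the rest, its gap to the nearest array as a share of the whole range being above Dixon's critical value. In 5 of them such an array was found, and chance alone marks about 1 in 20. Tumor 3 was that array for Plau (10.73, nearest tumor 9.01), for Plat (9.72, nearest 8.71) and, on the low side, for Serpinb5 (6.00, nearest 8.49). Normal gland 5 was high for Serpinb2 (4.59, nearest 4.02), a value under the detection level. Normal gland 6 was high for Vtn (7.76, nearest 7.46).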

How the results depend on the processing

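The differences of Serpinb2 and Serpinb5 kept their sign in all 3 comparisons under 28 alternatives, with Serpinb2 between 1.92 and 3.56 for tumor against normal and Serpinb5 between 0.49 and 1.30. Plau for tumor against normal became -0.02 without tumors 3 and 6 and hyperplastic 3, and its difference from hyperplastic glands -0.12. Signal over background limits the fold of Serpinb2, whose normal and mean hyperplastic levels lay under the detection level.

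Centring on 9 reference genes moved the median difference of all genes from 0.04 to -0.23 for tumor against normal and the share of calls that were higher to 9.76%, against 60.6% without centring. Pgk1, 1 of the 9, was itself 1.89 higher in tumors than in normal glands, and without it the median was -0.03 and the share 42.6%, or 62% with median centring. For tumor against hyperplastic the share was 58.2%, or 26.3% with the reference genes, and for hyperplastic against normal 60.8%, or 2.96% with them, 10.9% without Pgk1 and 48.3% with median centring.

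Genes called were 8713, 5546 and 451 for tumor against normal, tumor against hyperplastic and hyperplastic against normal, plasminogen system genes 8, 5 and 1, and other clade B serpins 2, 2 and 0. With reference genes, 17466 genes and 18 other clade B serpins were called for tumor against normal, 4 other clade B serpins for tumor against hyperplastic, and 3553 genes, 2 plasminogen system genes and 1 other clade B serpin for hyperplastic against normal (689 genes without Pgk1). Array weights gave 4 other clade B serpins for tumor against hyperplastic, and 2371 genes and 3 plasminogen system genes for hyperplastic against normal. With only the groups compared, 5 plasminogen system genes were called for tumor against normal, 1 other clade B serpin for tumor against hyperplastic, and 1524 genes and 6 plasminogen system genes for hyperplastic against normal. The methods' threshold gave 271, 145 and 7 genes. Restricting the fit to genes above the detection level left 1 other clade B serpin for tumor against normal, fewer genes being tested. Without tumors 3 and 6 and hyperplastic 3, 4 other clade B serpins were called for tumor against normal, 11 plasminogen system genes for tumor against hyperplastic and 2 for hyperplastic against normal. Apart from these constructions the cause was not tested. The planned permutation tests of member pairs within tumors are not used, because the members were chosen with results known.

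Leaving out 1 array gave 7861 to 9266 genes for tumor against normal, 4559 to 6016 for tumor against hyperplastic and 175 (without hyperplastic 4) to 610 (without tumor 3) for hyperplastic against normal. Plasminogen system genes called ran from 5 (without tumor 4) to 11 (without tumor 3), from 5 to 9 (without tumor 3) and from 1 to 2 (without tumor 3), and other clade B serpins from 2 to 4 (without tumor 3), from 1 to 4 (without tumor 3) and from 0 to 0.

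Whether samples with the same number pair was looked at through the correlation of deviations from the group means. Over 18 such pairs it had a median of 0.04 (-0.21 to 0.42), with 7 above 0.1. For other pairs the median was -0.01, with 20 of 90 above 0.1. The difference was not tested, so these values do not settle whether samples pair by number. With the replicate number as a block, 8769, 5605 and 507 genes, 6, 5 and 1 plasminogen system genes and 2, 3 and 0 other clade B serpins were called.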
